A study of Mus with 35 samples.

Results

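The 40 genes described here are regulators and machinery of cell proliferation, from the cyclins that start the cell cycle to the motors that part the chromosomes. They were selected by gene symbol, and each had its own row among the 55573 rows of the deposited expression table. All 40 passed the filter on low values, a mean of at least 0.1 TPM (a transcript level corrected for length and scaled to the same total in each library) over the 35 libraries, and 32 of them had a mean of at least 1 TPM.

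The study profiled brain RNA from male C57BL/6J mice that were hemizygous for a P209L or R206W change in Hnrnph2, an X-linked gene for an RNA-binding protein, or were wild-type (WT) littermates. Every mouse, controls included, had received 30 µg of an antisense oligonucleotide (ASO) into the cerebral ventricles on postnatal day 2 to 4, either a control ASO or the Hnrnph2 ASO. Brains were taken at 3 or 8 weeks of age. There were 12 groups of 3 libraries, except P209L mice given the Hnrnph2 ASO at 3 weeks, of which 2 were available here.

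The libraries form 3 cohorts, each with WT and mutant mice under both ASOs: a P209L cohort aged 8 weeks, another aged 3 weeks, and an R206W cohort aged 3 weeks. The 3-week WT libraries were placed in a cohort by the library name in their titles. The labels do not say whether each library came from a separate animal, so p-values measure the spread between these libraries. Hnrnph2 itself fell in every ASO comparison, by 2.00 to 2.58 on the log2 scale in WT and by 2.21 to 3.42 in mutants, which matched the labels.

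A dividing cell passes a commitment step in G1, copies its DNA in S phase and segregates the copies in mitosis. D-type cyclins with Cdk4, and then cyclin E with Cdk2, release E2f transcription factors, which switch on the replication genes. The MCM helicase is loaded on DNA before S phase, and cyclin B with Cdk1 drives mitosis until the anaphase-promoting complex ends it. In the postnatal rodent brain most neurons no longer divide, and dividing cells are found mainly among glial progenitors, in the neurogenic niches of the forebrain and, in the first weeks, in the cerebellum.

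The labels disagree on the tissue: the series text names whole brains, while the notes on extraction name cortex. Transcripts of cerebellar neurons were present in all libraries: Gabra6, of granule cells, lay between 32.39 and 155.28 TPM, and the neuronal gene Snap25 between 1216.8 and 2364.8 TPM. Atoh1, the defining transcription factor of cerebellar granule precursors, was at 0 to 0.07 TPM, whereas Pdgfra, a marker of oligodendrocyte precursors, was at 10.85 to 25.21 TPM and Dcx, of young neurons, at 6.72 to 20.89 TPM. Each library had 16235 to 16649 genes at 1 TPM or more. The library that stood furthest apart was replicate 3 of the 3-week WT group given the Hnrnph2 ASO in the P209L cohort, with the lowest mean correlation with its own group, 0.985, and the lowest share of mitochondrial transcripts, 9.28%. TPM carries no read depth, so the depth behind the low values is unknown.

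None of the 40 genes was at 0 in any library, but their levels spanned a wide range that followed their roles. The median of the gene means was 14.0 TPM for the 7 regulators of G1 and S entry, 2.69 TPM for the 11 genes of replication licensing and the fork, and 2.02 TPM for the 3 genes of deoxynucleotide supply. It was 1.2 TPM for the 6 mitotic entry kinases and cyclins, 1.26 TPM for the 2 partners of the anaphase-promoting complex and 0.776 TPM for the 11 genes of chromosomes, kinetochore and spindle.

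The highest level was that of Cdk4, the G1 kinase, with a mean of 100.9 TPM and a range of 83.93 to 122.67 TPM over the 35 libraries. Pcna, the sliding clamp of the replication fork, followed at 44.5 TPM (range 39.52 to 56.16). The D-type cyclins Ccnd2 and Ccnd1 had means of 24.8 TPM (18.18 to 36.77) and 20.6 TPM (12.06 to 34.06). These 2 cyclin ranges overlapped widely, while no library of any other member came up to the lowest Cdk4 value.

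Within the MCM helicase, whose 6 subunits form a ring around DNA, the subunits were not level with each other. Mcm7 stood highest at a mean of 13.5 TPM (10.52 to 16.43), above every library of the other 5. Mcm4 followed at 5.23 TPM (3.91 to 6.38), Mcm6 at 4.43 TPM (3.37 to 9.91), Mcm5 at 3.29 TPM (2.43 to 4.59), Mcm2 at 2.69 TPM (1.92 to 3.94) and Mcm3 at 2.12 TPM (1.21 to 3.43). Neighbours in that order from Mcm4 down overlapped in range. The Mcm7 row overlaps Ap4m1 on the genome, and how the counting treated strand is not given in the sources used here.

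At the low end, Bub1, a spindle checkpoint kinase, had a mean of 0.245 TPM (0.10 to 0.54). Mki67, the gene for the Ki-67 proliferation antigen, had a mean of 0.557 TPM (0.20 to 0.98), and Top2a, which untangles sister chromatids, 1.2 TPM (0.35 to 2.73). The spread between libraries of one group was also larger at the low end: the median coefficient of variation within groups was 30.1% for the chromosome, kinetochore and spindle genes and 10.4% for the G1 and S entry genes. By gene it ran from 6.32% for Pcna to 40.8% for Cenpf.

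**Figure D1:**
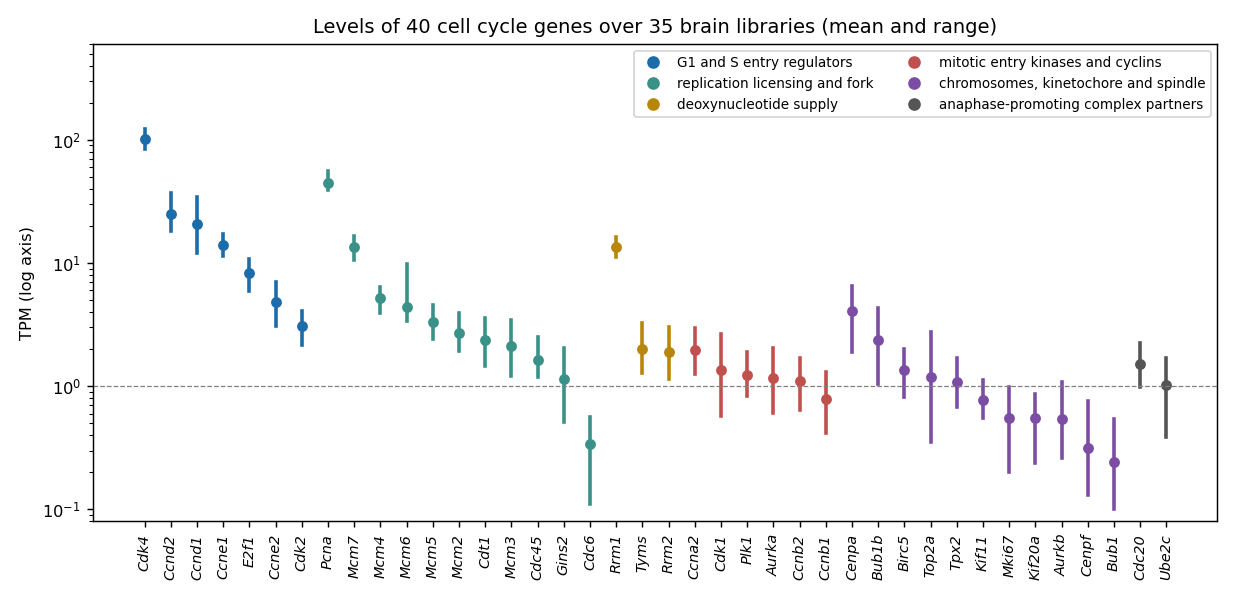
Mean level of each of the 40 genes in TPM (log axis), grouped by role; bars run from the lowest to the highest of the 35 libraries and the dashed line marks 1 TPM. Cdk4 is highest at 100.9 TPM, and most chromosome, kinetochore and spindle genes lie near or below 1 TPM.

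The widest change among these genes was with age. Between 3 and 8 weeks in the P209L cohorts, 17 members were lower at the older age and 3 were higher, which makes 20 of 40 called (limma on log2(TPM + 1), averaged over the 4 combinations of genotype and ASO, Benjamini-Hochberg adjusted p under 0.05 over 23189 genes). Over all genes tested 33.7% were called, 20.4% lower and 13.3% higher. The falls included the centromeric histone Cenpa, the mitotic kinase Cdk1 and the kinases Cdk2 and Cdk4, and the rises were Ccnd1, Mcm2 and Mcm5. The median difference of the 40 was -0.11 on the log2(TPM + 1) scale, beside -0.02 for all genes tested. The ages belong to separate cohorts, so age and cohort cannot be told apart. In bulk tissue, fewer cells of a type and less RNA per cell cannot be told apart either.

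Of the 17 falls, 10 were in mitotic genes, which make up 19 of the 40 members. Of the 19 genes of mitotic entry, chromosomes and the anaphase-promoting complex, these 10 fell and none rose, with a median difference of -0.16, and 17 were below 0. Over all genes tested 20.4% were lower. Falls were not particular to the mitotic members: of the 7 regulators of G1 and S entry 4 fell, with a median of -0.17. In a separate list of 40 other mitosis genes 8 fell and 5 rose, near the shares over all genes. By role, 6 of 11 chromosome, kinetochore and spindle genes fell, 3 of 6 mitotic entry genes and 1 of the 2 partners of the anaphase-promoting complex. The summed level of the 19 genes was between 19.86 and 30.51 TPM in the 11 libraries at 3 weeks (median 24.37) and between 16.2 and 21.62 TPM in the 12 libraries at 8 weeks (median 19.045). The sums overlapped in 2 of the 3-week libraries, both from P209L mice given the control ASO, at 19.86 and 20.47 TPM.

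Cenpa (chr5:30666877-30674837, GRCm38), which encodes the histone variant that marks centromeres, had the largest difference of the 40. At 3 weeks its libraries in the P209L cohort ran from 3.68 through a median of 5.15 to 6.45 TPM. At 8 weeks they ran from 1.88 through a median of 2.60 to 3.34 TPM. No library at 8 weeks reached the lowest at 3 weeks. The average difference was -0.73 (SE 0.076, limma adjusted p = 2.62e-08), a fall in the mean of the group means from 5.01 to 2.59 TPM. Cenpa was called in each of the 4 genotype and ASO combinations when the spread was estimated over all 35 libraries. With only the libraries of a combination in the fit, it was called in P209L mice given the control ASO (limma adjusted p = 0.038) and not in the other 3 (adjusted p = 0.075 to 0.13). In the R206W cohort, also at 3 weeks, it was between 3.49 and 5.92 TPM, above all 8-week libraries as well.

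Cdk1, the kinase that drives entry into mitosis, ran from 1.13 through 1.32 to 2.67 TPM at 3 weeks and from 0.57 through 0.955 to 1.54 TPM at 8 weeks, so the ages overlapped. Its difference was -0.37 (SE 0.098, limma adjusted p = 0.0050). Cdc20, the activator of the anaphase-promoting complex, fell by 0.26 (SE 0.064, limma adjusted p = 0.0020), from a mean of 1.65 to 1.2 TPM. Cdc20 overlaps Elovl1 on the genome, and Elovl1 also fell, by 0.74 at a mean of 53.8 TPM. Whether reads of Elovl1 entered the Cdc20 value was not tested.

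Mki67 (chr7:135689784-135716450) was lower at 8 weeks, at 0.31 to 0.63 TPM (median 0.43), than at 3 weeks, at 0.37 to 0.98 TPM (median 0.72). Its difference was -0.20 (limma adjusted p = 0.017), and the ages overlapped. Top2a did not pass the test, at -0.18 (SE 0.119, adjusted p = 0.26), with 0.35 to 2.73 TPM at 3 weeks and 0.74 to 1.38 TPM at 8 weeks. The other mitotic genes called lower were Ccna2, Aurka, Bub1, Kif11, Birc5 and Kif20a, with differences from -0.15 to -0.23. The Kif20a call was lost in 14 of 23 cases with a library left out (adjusted p up to 0.088). Aurka and Ccna2 overlap Cstf1 and Exosc9, which fell by 0.18 and 0.11. Kif20a overlaps Brd8 and Cdc23, and Kif11 overlaps 2 pseudogenes. Whether reads of any of these neighbours entered the values was not tested.

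Among the regulators of G1 and S entry, 4 of 7 fell and 1 rose. Cdk2 (chr10:128697938-128705051), the kinase of S phase entry, lay at 2.73 to 3.89 TPM (median 3.40) at 3 weeks and at 2.17 to 2.79 TPM (median 2.46) at 8 weeks. The difference was -0.31 (SE 0.051, limma adjusted p = 3.45e-05). Cdk4 (chr10:127063535-127067288) lay at 94.54 to 117.65 TPM at 3 weeks and 83.93 to 104.6 TPM at 8 weeks, a difference of -0.21 (SE 0.038, limma adjusted p = 7.57e-05). Both kinases overlapped between the ages only in part, and the fall of Cdk4 was small beside its level. The neighbour that overlaps Cdk4, Tspan31, differed by -0.02 (adjusted p = 0.61). Pmel, which overlaps Cdk2, differed by -0.20 (limma adjusted p = 0.040) at a mean of 0.644 TPM. Whether reads of Pmel entered the Cdk2 value was not tested.

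E2f1, the transcription factor that activates replication genes, fell by 0.18 (limma adjusted p = 0.013). Its libraries ran from 6.92 to 10.51 TPM at 3 weeks and from 5.98 to 10.71 TPM at 8 weeks. E2f1 lies over part of Necab3, which has a mean of 66.2 TPM and fell by 0.29. Ccne1, a cyclin E, was also called lower, at -0.10, a call lost in 10 of those 23 cases, while Ccnd2 did not pass the test (-0.12, adjusted p = 0.25).

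Ccnd1 (chr7:144929931-144939831), a cyclin D that activates Cdk4 and Cdk6, went the other way from its kinase. It ran from 12.06 through 20.25 to 23.14 TPM at 3 weeks and from 21.08 through 24.4 to 34.06 TPM at 8 weeks. The difference was 0.37 (SE 0.057, limma adjusted p = 1.22e-05). The size varied between combinations, and the largest, 0.89, was in P209L mice given the Hnrnph2 ASO. There the 8-week libraries had a mean of 30.0 ± 3.67 TPM (SD, n = 3) and the 2 libraries at 3 weeks were at 20.25 and 12.06 TPM. Without the lower of those 2, replicate 2, the average difference was 0.28 and remained called. Ccnd1 overlaps LTO1 on the genome, and whether reads of LTO1 entered the Ccnd1 value was not tested.

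The replication genes split. Mcm2 (chr6:88883474-88898780) lay at 1.92 to 3.37 TPM (median 2.36) at 3 weeks and at 2.82 to 3.94 TPM (median 3.12) at 8 weeks, and it rose by 0.29 (SE 0.043, limma adjusted p = 6.20e-06). Mcm5 (chr8:75109468-75128439) rose from a mean of 3.12 to 3.72 TPM, by 0.20 (SE 0.046, limma adjusted p = 0.0014). The other 4 MCM subunits did not pass the test: Mcm3 differed by 0.10 (adjusted p = 0.43), Mcm4 by 0.07 (0.38), Mcm6 by -0.04 (0.73) and Mcm7 by 0.005 (0.96). Pcna did not pass either, at -0.01 (adjusted p = 0.86).

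The licensing factor Cdt1, which brings the MCM ring to origins, fell by 0.25 (SE 0.078, limma adjusted p = 0.016), from a mean of 2.63 to 2.04 TPM. Cdc45, which joins the ring in the active helicase, fell by 0.22. It overlaps Ufd1, which had a mean of 69.4 TPM and differed by -0.06 (limma adjusted p = 0.33). Rrm2, the regulated subunit of ribonucleotide reductase, which makes deoxynucleotides, ran from 1.60 to 3.02 TPM (median 2.18) at 3 weeks and from 1.15 to 1.87 TPM (median 1.55) at 8 weeks. Its difference was -0.33 (SE 0.069, limma adjusted p = 0.00048). Its partner subunit Rrm1 and the thymidylate synthase Tyms did not pass the test. Of the 20 members that did not pass, 11 were below 0, down to Bub1b, a spindle checkpoint protein, at -0.22 (adjusted p = 0.21), and 9 were above 0, up to Mcm3 at 0.10.

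**Figure D2:**
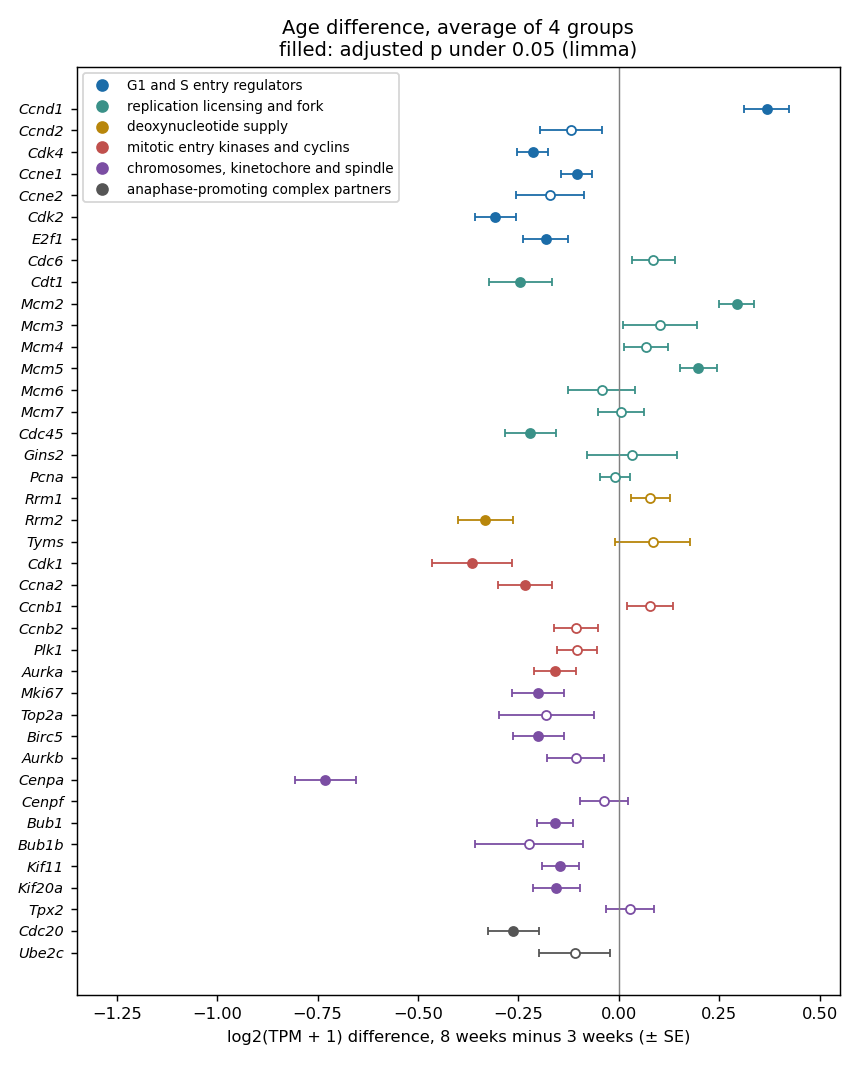
Difference between 8 and 3 weeks in log2(TPM + 1) for each of the 40 genes, averaged over 4 genotype and ASO combinations of the P209L cohorts, with its standard error; filled points have a limma adjusted p under 0.05. Cenpa is lowest at -0.73 and Ccnd1 highest at 0.37.

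**Figure D3:**
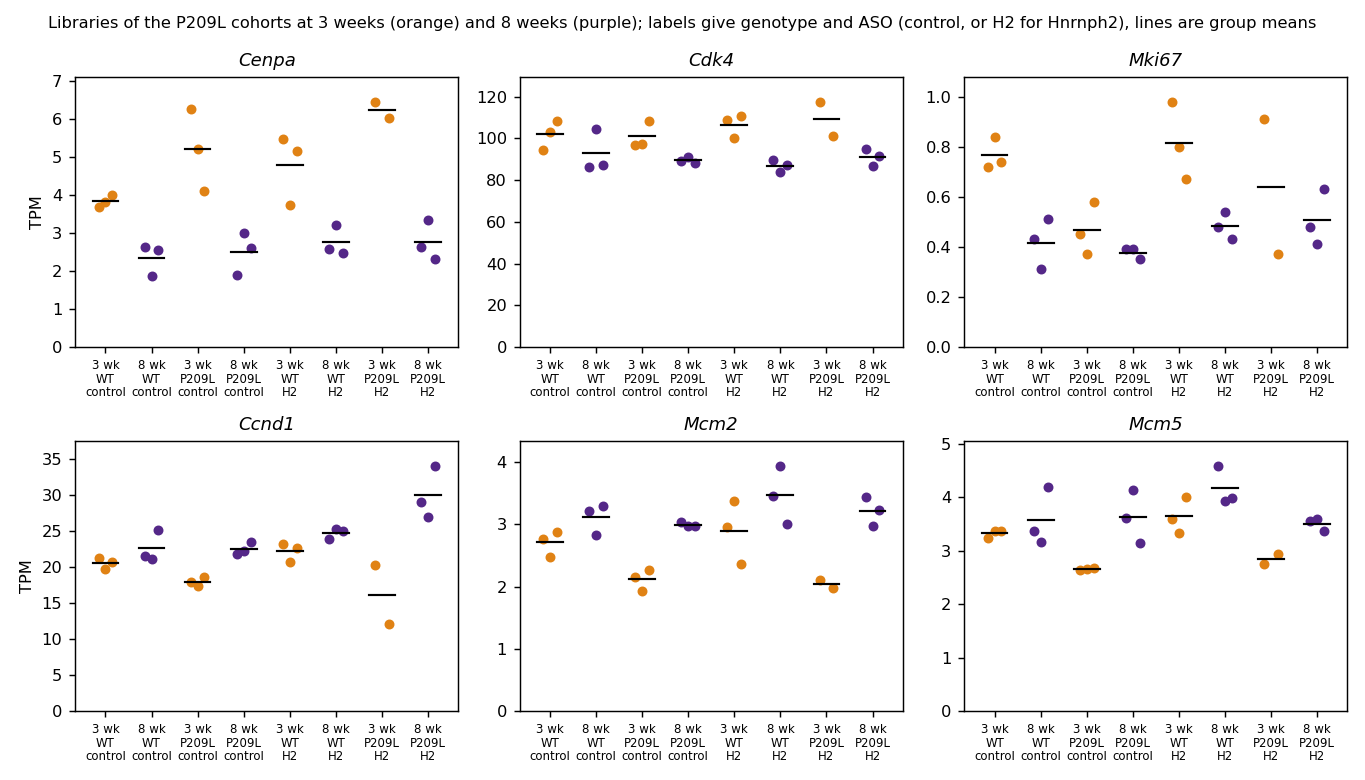
TPM of Cenpa, Cdk4, Mki67, Ccnd1, Mcm2 and Mcm5 in each library of the P209L cohorts (points) with group means (lines), 3 weeks in orange and 8 weeks in purple. The Cenpa points at 8 weeks all lie at or under 3.34 TPM and those at 3 weeks at or over 3.68 TPM.

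Within single combinations of genotype and ASO, still fitted with all 35 libraries, fewer members passed. In WT mice given the control ASO 1 of 40 was called, Cenpa, at -0.53 (SE 0.147, limma adjusted p = 0.023), from 3.83 ± 0.156 to 2.35 ± 0.411 TPM (SD, n = 3 each); over all genes 7.95% were called. In P209L mice given the control ASO 3 were called (7.05% of all genes): Cenpa at -0.82, Mcm2 at 0.36 and Mcm5 at 0.34. In WT mice given the Hnrnph2 ASO 6 were called, all lower (8.38% of all genes): Cenpa, Cdk2, Cdk4, Rrm2, Birc5 and Cdc20. In P209L mice given the Hnrnph2 ASO 5 were called (11.8% of all genes), Cenpa, Cdc45 and Cdk4 lower and Ccnd1 and Mcm2 higher. A direction below 0 in all 4 combinations was found for 17 of 40 members, or 42.5%, beside 28.9% of all genes, and 11 of these 17 were among the 19 mitotic genes. A direction above 0 in all 4 was found for Ccnd1, Mcm2, Mcm4 and Mcm5, or 10% of the members, beside 18.8% of all genes.

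With only the libraries of a combination in the fit, 3 members were called in P209L mice given the control ASO and 0 in each of the other 3 combinations. Mcm5 was not among these 3 (limma adjusted p = 0.093). In the fit to all 35 libraries its call was lost in 4 of 6 cases with a library of that combination left out. The call in WT control mice also depended on single libraries. Leaving out each of their 6 libraries in turn gave 0 to 5 called members, and Cenpa lost its call in 4 of the 6 cases (adjusted p up to 0.149). With the 3-week WT mice of the R206W cohort as the younger group, 9 members were called. Under that choice 2 calls in WT mice given the Hnrnph2 ASO were lost, those of Rrm2 (-0.07, adjusted p = 0.80) and Cdc20 (-0.17, adjusted p = 0.39). With each of the 6 libraries of that combination left out in turn, Cdc20 lost its call in all 6 cases. Rrm2 and Birc5 lost theirs in 4, Cdk2 and Cdk4 in 2 and Cenpa in 0. In P209L mice given that ASO, the Cdk4 difference was -0.15 without replicate 1 of the 3-week group and -0.37 without replicate 2.

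Markers of several cell types moved with age, and their part in these differences was not tested. Of 13 markers of oligodendrocyte precursors, a dividing glial population, 10 fell and none rose, with a median difference of -0.49. Their summed level was 690.71 to 821.1 TPM at 3 weeks and 515.74 to 627.52 TPM at 8 weeks, with no overlap. Of 17 genes of neural stem cells and neuroblasts, 8 fell, and the sums were 895.37 to 1122.9 and 774.98 to 884.02 TPM. Of 10 genes of myelinating oligodendrocytes, 8 fell, with a median of -0.94. All 7 erythrocyte genes tested fell, with sums of 1019.9 to 5848.4 TPM at 3 weeks and 730.97 to 1821.2 TPM at 8 weeks. The share of mitochondrial transcripts was 9.28% to 13.9% at 3 weeks and 13.5% to 15.4% at 8 weeks. Among 9 cerebellar genes 2 rose and none fell, and 1 of 6 tested genes of cerebellar granule precursors fell. Of 6 choroid plexus genes 3 rose and none fell, and of 12 pericyte and leptomeningeal genes 6 rose and 4 fell. Of 9 microglial genes 3 rose and 2 fell, and of 8 forebrain and cortex genes none rose and 3 fell. Over all genes tested 13.3% rose and 20.4% fell.

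When the erythrocyte sum was added to the model, a choice made after seeing the data, 12 members were called, 3 higher and 9 lower. E2f1, Kif11, Birc5, Cdt1, Mki67, Aurka, Ccne1 and Kif20a were then no longer called. The differences of 4 of these hardly moved, to -0.17 for E2f1, -0.15 for Kif11, -0.24 for Cdt1 and -0.16 for Aurka, while those of the other 4 came closer to 0, at -0.15 for Birc5, -0.14 for Mki67, -0.06 for Ccne1 and -0.09 for Kif20a. In the same model the calls of Cenpa, Ccnd1, Mcm2, Mcm5, Cdk1, Cdk2, Cdk4, Rrm2 and Cdc20 held. Without replicate 3 of the 3-week WT group given the Hnrnph2 ASO, the library that stood furthest apart, 20 members were called. Without replicate 1 of the 3-week P209L group given the Hnrnph2 ASO, 15 members were called, and Birc5, Kif11, Mki67 and Ccne1 were among those that lost their calls. The 2 libraries of that group differed widely in mitotic genes: Top2a was at 1.62 and 0.35 TPM, Ube2c at 1.70 and 0.44 TPM and Mki67 at 0.91 and 0.37 TPM.

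A wider list of 113 other cell cycle genes gave 18 higher and 24 lower with age, with a median of -0.05. These counts lay near the shares over all genes tested, 13.3% higher and 20.4% lower. In its mitosis group of 40 genes, 5 rose and 8 fell, which was also near those shares. In its replication group of 34 genes, 7 rose and 5 fell. Of 7 CDK inhibitors, which hold cells out of the cycle, none rose and 3 fell, with Cdkn1a at -0.93 (limma adjusted p = 1.54e-05). The smallest p-values of the list were those of the securin Pttg1 (0.47, adjusted p = 2.55e-10), of Cdk6, the other partner of D-type cyclins (-0.31, adjusted p = 6.2e-07), and of Ccng1 (0.26, adjusted p = 7.97e-06).

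The mutations were compared with WT littermates under the control ASO. Averaged over the 3 cohorts, 3 of 40 members passed the test, beside 3.05% of all genes tested: E2f1 was higher in mutants, and the mitotic genes Ccnb1 and Plk1 were lower. The median difference of the 40 was -0.09, beside 0.006 for all genes. A direction below 0 in all 3 cohorts was found for 18 members, or 45%, beside 17.7% of all genes, and 10 of these 18 were among the 19 mitotic genes. A direction above 0 in all 3 was found for Cenpa, E2f1 and Gins2, or 7.5%, beside 21.4% of all genes. At an unadjusted p under 0.05 there were 11 members, beside 16.3% of all genes.

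E2f1 (chr2:154559400-154569892) was at 7.07, 5.98 and 8.86 TPM in WT and at 10.71, 8.43 and 10.60 TPM in P209L mice at 8 weeks. At 3 weeks it was at 8.27, 7.97 and 9.03 TPM in WT and at 10.51, 9.86 and 9.98 TPM in P209L mice. In the R206W cohort it was at 8.15, 6.78 and 6.89 TPM in WT and at 9.07, 9.37 and 10.87 TPM in R206W mice. The groups did not overlap in either 3-week cohort, and at 8 weeks 1 P209L library lay under the highest WT library. The average difference was 0.34 (SE 0.063, 95% interval 0.21 to 0.47, limma adjusted p = 0.0017), from a mean of 7.67 to 9.93 TPM, or 29.6% higher. It stayed called when each of the 18 libraries was left out in turn (0.30 to 0.38). Necab3, which overlaps E2f1 and is expressed higher, differed by -0.09 (adjusted p = 0.41).

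Ccnb1 (chr13:100778739-100786486), the cyclin that activates Cdk1, was at 1.13, 0.69 and 1.31 TPM in WT and at 0.53, 0.50 and 0.52 TPM in P209L mice at 8 weeks. At 3 weeks it was at 0.85, 0.80 and 0.80 TPM in WT and at 0.69, 0.42 and 0.57 TPM in P209L mice, and in the R206W cohort at 0.79, 1.11 and 0.87 and at 0.90, 0.53 and 0.79 TPM. The groups were apart in both P209L cohorts and overlapped in the R206W cohort. The average difference was -0.26 (SE 0.064, limma adjusted p = 0.021), from a mean of 0.928 to 0.606 TPM. The call was lost in 3 of the 18 cases with a library left out: replicate 2 of the 3-week P209L control, the R206W-cohort WT control or the R206W control group (adjusted p up to 0.055).

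Plk1 (chr7:122159435-122169884), a kinase of mitotic entry and spindle assembly, was at 1.04, 1.27 and 0.93 TPM in WT and at 1.06, 0.87 and 0.83 TPM in P209L mice at 8 weeks. At 3 weeks it was at 1.34, 1.44 and 1.58 TPM in WT and at 0.94, 0.92 and 1.17 TPM in P209L mice, and in the R206W cohort at 1.62, 1.74 and 1.90 and at 1.11, 1.42 and 1.40 TPM. Both 3-week cohorts were without overlap. The average difference was -0.22 (SE 0.056, limma adjusted p = 0.028), from a mean of 1.43 to 1.08 TPM, and it lost its call in 8 of the 18 cases with a library left out (adjusted p up to 0.068).

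Ube2c (chr2:164769929-164772902), the ubiquitin-conjugating enzyme of the anaphase-promoting complex, differed by -0.34 on average (SE 0.098) and did not pass the test (limma adjusted p = 0.055). Its 3-week values were 1.36, 1.39 and 1.13 TPM in WT and 0.44, 0.39 and 0.66 TPM in P209L mice, and 1.63, 1.60 and 1.52 against 1.30, 1.54 and 0.70 TPM in the R206W cohort. At 8 weeks it was at 0.56, 0.60 and 0.91 TPM in WT and at 0.54, 0.56 and 0.48 TPM in P209L mice. Only in the 3-week P209L cohort did the groups neither overlap nor touch. Top2a (-0.33, adjusted p = 0.20), Mki67 (-0.18, adjusted p = 0.20) and Cenpa (0.22, adjusted p = 0.17) did not pass either.

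**Figure D4:**
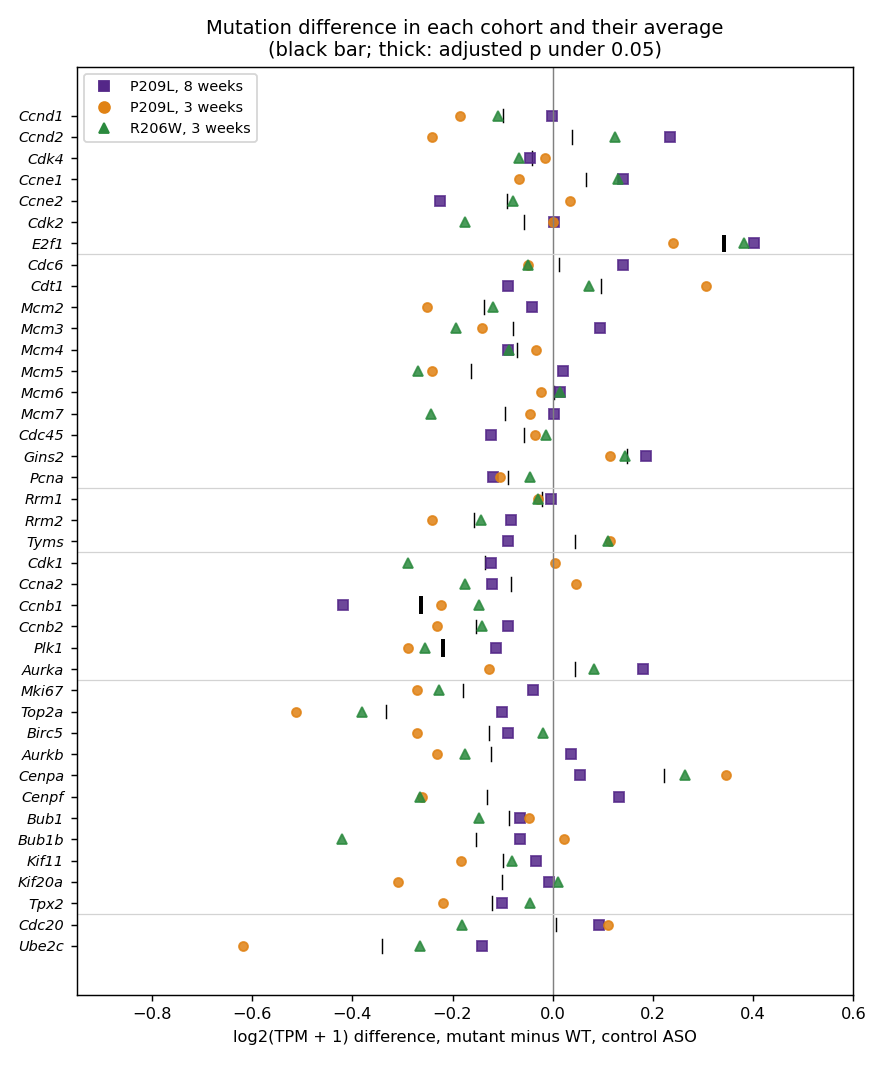
Difference between mutant and WT mice under the control ASO in log2(TPM + 1) for each of the 40 genes, by cohort (squares P209L at 8 weeks, circles P209L at 3 weeks, triangles R206W at 3 weeks), with the average as a black bar, thick where its limma adjusted p is under 0.05. E2f1 lies to the right in all 3 cohorts, and Ccnb1 and Plk1 to the left.

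**Figure D5:**
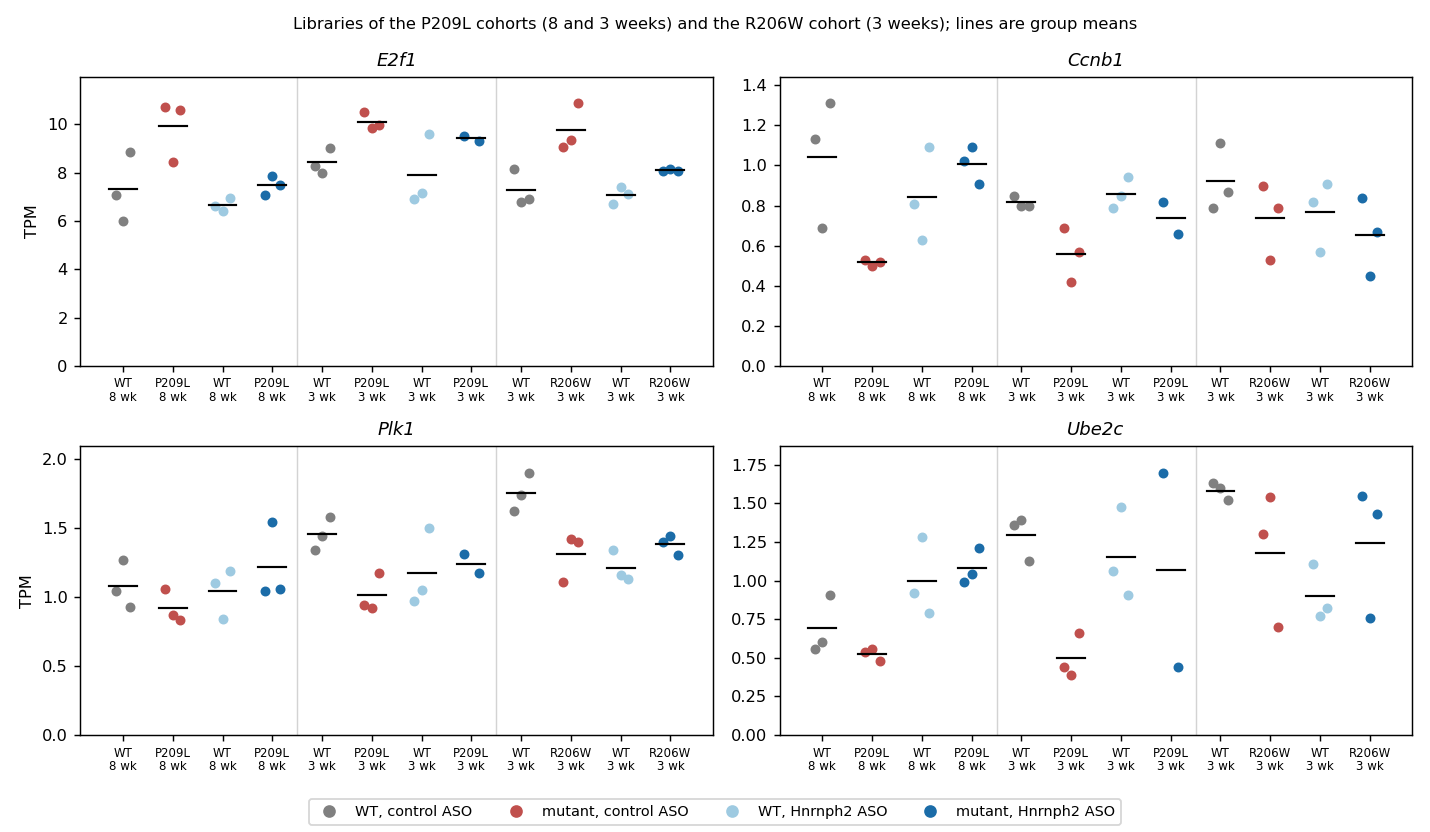
TPM of E2f1, Ccnb1, Plk1 and Ube2c in each of the 35 libraries by group, with group means as lines. Under the control ASO the E2f1 means are higher in each mutant group than in its WT littermates.

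In a single cohort no member passed. In the same comparisons limma called 0.0864% of all genes in the P209L cohort at 8 weeks, 0.0652% at 3 weeks and 0.0785% in the R206W cohort. At an unadjusted p under 0.05 there were 3 members at 8 weeks (6.17% of all genes), 8 in the P209L cohort at 3 weeks (8.02%) and 4 in the R206W cohort (8.3%). By p-value, the leading 3 members at 8 weeks were Ccnb1 (-0.42, adjusted p = 0.54), E2f1 (0.40, 0.60) and Pcna (-0.12, 0.79). In the P209L cohort at 3 weeks they were Kif20a (-0.31, 0.42), Ube2c (-0.62, 0.49) and Mcm5 (-0.24, 0.52), and in R206W mice they were E2f1 (0.38, 0.27), Plk1 (-0.25, 0.46) and Mcm5 (-0.27, 0.49).

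Lower groups without overlap were most frequent in the P209L cohort at 3 weeks, where 15 of 40 members had all P209L libraries under all WT libraries, beside 9.34% of all genes. The same held for 8 members in the R206W cohort (5.24% of all genes) and 2 in the P209L cohort at 8 weeks (3.86%). Higher groups without overlap were found for 2, 2 and 0 members (9.01%, 6.14% and 5.79% of all genes). The mean summed level of the 19 mitotic genes was 24.6 TPM in WT and 21.4 TPM in P209L mice at 3 weeks, 29.4 and 25.4 TPM in the R206W cohort and 17.9 and 16.6 TPM at 8 weeks.

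Other markers differed between these genotype groups too, and their part was not tested. On average 2 of 9 cerebellar genes and 3 of 10 genes of myelinating oligodendrocytes were lower in mutants, and 1 of 13 oligodendrocyte precursor genes was higher and 2 were lower. None of the 17 genes of neural stem cells and neuroblasts was called. The mean cerebellar sum was 870 TPM in WT and 736 TPM in P209L mice at 3 weeks, 1324 and 983 TPM in the R206W cohort and 883 and 840 TPM at 8 weeks. Of 12 pericyte and leptomeningeal genes 4 were lower and none was higher. Their sums were without overlap in both 3-week cohorts, at 320.13 to 337.14 TPM in WT and 238.49 to 287.27 TPM in P209L mice, and at 361.2 to 385.76 and 281.5 to 304.18 TPM in the R206W cohort, and overlapped at 8 weeks. Of 8 endothelial genes 1 was lower, and the mean sums at 3 weeks were 239 and 212 TPM in the P209L cohort and 251 and 220 TPM in the R206W cohort. No erythrocyte gene was called, but their mean sum was 2660 TPM in WT and 1531 TPM in P209L mice at 3 weeks, and 2330 and 2427 TPM in the R206W cohort. With the cerebellar sum in the model the Plk1 difference was slightly larger, at -0.25, with an adjusted p of 0.053. With the erythrocyte sum the Ccnb1 difference was -0.25, close to its value without it, with an adjusted p of 0.060.

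Of the 113 other cell cycle genes, 2 were higher and 3 lower in mutants, beside 3.05% of all genes called. The higher ones were Cdkn2d, a CDK inhibitor (0.13, limma adjusted p = 0.026), and Orc6, a subunit of the origin recognition complex (0.18, adjusted p = 0.028). The lower ones were Cdkn1c, another CDK inhibitor (-0.32, adjusted p = 0.036), the spindle protein Ckap2 (-0.21, adjusted p = 0.044) and E2f5.

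The Hnrnph2 ASO was compared with the control ASO within each genotype. In WT mice no member passed in any cohort or on average. Of all genes limma called 0.013% in the P209L cohort at 8 weeks, 0.00869% at 3 weeks, 0.00872% in the R206W cohort and 0.138% on average. At an unadjusted p under 0.05 there were 2 members at 8 weeks (3.95% of all genes), 3 in the P209L cohort at 3 weeks (4.41%), 7 in the R206W cohort (6.61%) and 2 on average (8.93%). On average the smallest p-values were those of Plk1 (-0.18, adjusted p = 0.28), Ccnd2 (-0.20, 0.50) and Aurka (0.12, 0.58). The 95% intervals of the average difference lay within 0.5 of 0, on the log2(TPM + 1) scale, for all 40 members. That limit says little about the lowest genes. On this scale a complete loss of Bub1, at a mean of 0.245 TPM, would itself be a difference smaller than 0.5.

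In the WT mice of the R206W cohort most members were lower under the Hnrnph2 ASO than under the control ASO, without passing the test. There 35 of 40 members were below 0, with a median of -0.13, beside -0.01 for all genes tested. Of the members, 11 had all libraries under the control ASO libraries, beside 7.22% of all genes. Their smallest p-values were those of Plk1 (-0.32), Ccnd1 (-0.23) and Ube2c (-0.45), with adjusted p-values from 0.54 to 0.69. The mean mitotic sum was 24.0 TPM under the Hnrnph2 ASO and 29.4 TPM under the control ASO in that cohort, and 28.4 and 24.6 TPM in the 3-week WT mice of the P209L cohort, so the WT mice of these 2 cohorts lay in opposite directions. In WT mice at 8 weeks the sum was 19.34 to 20.48 TPM under the Hnrnph2 ASO, against 16.76 to 18.75 TPM under the control ASO. Other markers moved in the WT comparison of the R206W cohort, and their part was not tested. The erythrocyte sum was 2050.2 to 2664.7 TPM under the control ASO and 3906.2 to 4975.7 TPM under the Hnrnph2 ASO. The sum of oligodendrocyte precursor genes was 685.38 to 734.45 and 654.07 to 669.55 TPM, and that of neural stem cell and neuroblast genes 1052.1 to 1096.8 and 971.72 to 1025.3 TPM, each without overlap, though none of these genes was called. In both 3-week cohorts the library names of the control ASO and Hnrnph2 ASO mice share no stem (the name without its last number). What a stem stands for is not given, so ASO and stem cannot be told apart.

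In mutants no member passed either. Of all genes limma called 0.0821% in P209L mice at 8 weeks, 0.0695% at 3 weeks, 0.0654% in R206W mice and 1.66% on average. At an unadjusted p under 0.05 there were 7 members at 8 weeks (6.36% of all genes), 0 in P209L mice at 3 weeks (6.42%), 3 in R206W mice (7.41%) and 7 on average (12.5%). On average 30 of 40 members were above 0, with a median of 0.05, beside 0.002 for all genes tested. A direction above 0 in all 3 cohorts was found for 8 members, or 20%, beside 19.2% of all genes: Cdk1, Mcm3, Mcm7, Mki67, Pcna, Plk1, Top2a and Ube2c. Below 0 in all 3 were Ccne1, E2f1, Gins2 and Tyms, or 10%, beside 18% of all genes. In treated P209L mice at 8 weeks the mitotic sum was 20.2 to 21.62 TPM, against 16.2 to 17.1 TPM under the control ASO. At 3 weeks it was 24.28 to 30.51 TPM in the 2 treated P209L libraries, against 19.86 to 23.93 TPM. In R206W mice it was 20.13 to 28.15 TPM, against 23.33 to 26.87 TPM, with a lower mean (23.7 against 25.4 TPM). The mutants given the control ASO serve in this comparison and in that with WT, so the values of both are given side by side and not related to each other.

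E2f1 under the Hnrnph2 ASO was at 7.09, 7.88 and 7.5 TPM in P209L mice at 8 weeks, at 9.53 and 9.32 TPM at 3 weeks, and at 8.08, 8.14 and 8.08 TPM in R206W mice. In WT mice given the same ASO it was at 6.61, 6.4 and 6.97 TPM at 8 weeks, at 6.92, 7.15 and 9.59 TPM at 3 weeks, and at 6.69, 7.41 and 7.12 TPM in the R206W cohort. Every treated mutant library lay under every control mutant library of its cohort. How many of all genes did the same was not counted. The average difference from mutants under the control ASO was -0.23 (SE 0.065, limma adjusted p = 0.072), from 9.93 to 8.34 TPM, and it did not pass the test. It passed in 1 of the 17 cases with a library left out (-0.26, adjusted p = 0.037, without replicate 2 of the 8-week P209L control group). In WT mice E2f1 was also below 0 under the Hnrnph2 ASO in all 3 cohorts, where the groups overlapped and it did not pass the test.

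The next smallest p-values in mutants were those of Ube2c (0.30, adjusted p = 0.16) and Ccne1 (-0.12, adjusted p = 0.24). Both turned on the 2 libraries of the 3-week P209L group. Without replicate 2 Ube2c was at 0.45 (adjusted p = 0.010), and without replicate 1 Ccne1 was at -0.19 (adjusted p = 0.0035). By cohort, the smallest p-values were those of Ccnd1 (0.39, adjusted p = 0.24) in P209L mice at 8 weeks, Cdc45 (0.34, adjusted p = 0.80) in P209L mice at 3 weeks and Ccne1 (-0.21, adjusted p = 0.51) in R206W mice. Of the other cell cycle genes, Ckap2 (0.28, adjusted p = 0.0087) and Cdkn1c (0.34, adjusted p = 0.040) were higher and Cdkn2d (-0.13, adjusted p = 0.048) was lower under the Hnrnph2 ASO.

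Treated mutants were also set against WT mice given the control ASO. No member passed, beside 3.76% of all genes, and 2 had an unadjusted p under 0.05, beside 16.9% of all genes. The smallest p-values were those of Cenpa (0.25, limma adjusted p = 0.11), Mcm2 (-0.11, 0.26) and Mcm5 (-0.11, 0.30). E2f1 differed by 0.11 (95% interval -0.02 to 0.25, adjusted p = 0.41). This comparison shares its control groups with those above.

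The difference between genotypes in their response to the ASO, and between cohorts or ages in each effect, was tested with 7 interaction terms. No member passed in any of them. The average interaction of genotype and ASO called 0.194% of all genes, and its smallest member p was that of Plk1 (0.31, limma adjusted p = 0.16), with 3 members at an unadjusted p under 0.05 (6.75% of all genes). The other 6 called 0% or 0.00431% of all genes. At an unadjusted p under 0.05, the mutation effect differed between ages for 4 members (3.47% of all genes) and between R206W and P209L for 0 (2.9%). The ASO effect in WT differed between ages for 2 (3.25%) and between cohorts for 5 (4.47%), and that in mutants for 1 in each case (3.59% and 4.17%). The effects of mutation, ASO and age on these 40 genes were therefore not shown to differ between groups.

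Finally, the 3-week WT mice of both cohorts were compared to see how far these genes vary between cohorts of the same age and genotype. Of the 40 members 2 were called, both lower in the R206W cohort, beside 18.4% of all genes: Ccnd1 (-0.28, SE 0.078, limma adjusted p = 0.014, from 21.4 to 17.4 TPM) and Mcm6 (-0.33, adjusted p = 0.045, from 5.30 to 3.82 TPM). The Mcm6 call was lost in 8 of the 12 cases with a library left out (limma adjusted p up to 0.13). The largest shift, to -0.17 (adjusted p = 0.13), came without replicate 3 of the WT group given the Hnrnph2 ASO in the P209L cohort. That library, at 9.91 TPM, had the highest Mcm6 value of all libraries. All 9 cerebellar genes were higher in the R206W cohort, with a median of 0.78, and 5 of 8 forebrain and cortex genes were lower. Their part in the Ccnd1 difference was not tested.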

How the data were processed

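RNA-seq of brain was deposited as a table of TPM for 35 libraries, made by the authors. Per the submitters' processing notes, Trim Galore, STAR 2.7.1a, GATK 4.0.4.0 and RSEM were used with mm10; the annotation and strand setting are not given in the sources used here, and libraries were made with a stranded total RNA kit per the labels' protocols. TPM fixes the sum of each library, so a change in abundant genes moves all others, and depth is unknown.

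A pseudocount of 1 was added to each TPM before taking log2, genes averaging under 0.1 TPM were left out, and the models were fitted in limma (version 3.58.1, R version 4.3.3; empirical Bayes with a trend). Fold changes of low genes are understated on this scale. Benjamini-Hochberg adjustment ran over all genes tested, and 0.05 was the threshold. Mutation and ASO effects of a cohort were fitted on that cohort, and averages, age, cohort differences and interactions on all 35 libraries. The scripts were tested on simulated data with differences of 1 on the log2 scale, placed in genes above about 1 TPM. That test does not cover smaller differences or lower genes. Named genes were those called (beyond 12, the 6 largest rises and falls), the 3 smallest p-values where none was called, and a fixed set of core members. The members and gene lists were chosen with earlier results of these data known. Coordinates are from RefSeq's annotation of GRCm38. Alternatives covered the pseudocount, the filter, rescaling, the replicate block, the groups in the fit, WT cohorts, covariates and single libraries.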

Additional observations from a re-analysis of the deposited data

How the results depend on the processing

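The age effect averaged over 4 combinations held under the planned settings: 18 to 20 of 40 members were called with a pseudocount of 0.1, no filter, rescaled TPM or the replicate block (20), and 16 of 32 with a filter at 1 TPM. Leaving out single libraries gave 15 to 21, and adding the erythrocyte sum, chosen after seeing the data, gave 12. The age effect within 1 combination was less stable. In WT control mice (1 called) there were 2 with the replicate block, 0 with only the groups compared, 9 with the R206W-cohort WT mice as the younger group, 6 with both 3-week WT groups pooled (added later) and 0 to 5 with single libraries left out. In P209L control mice (3) the last range was 1 to 3. In WT mice given the Hnrnph2 ASO (6) there were 3 without a filter, 3 with rescaled TPM, 0 with only the groups compared and 2 to 8 with libraries left out. In P209L mice given that ASO (5) there were 0 with only the groups compared.

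For the average mutation effect (3 called), rescaled TPM gave 5 and left-out libraries 1 to 3. For the P209L mutation at 3 weeks (0), pooling the WT mice of both 3-week cohorts gave 2, among them Ube2c at -0.70 (limma adjusted p = 0.049). For the ASO effect in mutants (0), rescaled TPM gave 1, E2f1 (adjusted p = 0.047), and left-out libraries gave 0 to 1, as they did for treated mutants against control WT mice (0 to 1). For the difference between 3-week cohorts (2) there were 1 without a filter, 4 with the replicate block, 1 with only the groups compared and 1 to 4 with libraries left out. The 3-week ASO effect on Ube2c in P209L mice (0.40, not called) ran from -0.051 without replicate 1 of the treated group to 0.86 without replicate 2. Where no cause is built into the setting, the cause was not tested.

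Replicate numbers did not pair the libraries: correlations of same-numbered deviations ran from -0.16 to 0.25, and in no comparison were all above 0.1. With the block, no other count of calls moved by over 1.5 times. Groups of 2 or 3 libraries, TPM without read depth and levels near 1 TPM limit what could be detected among the mitotic genes.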
